A study of Mus musculus with 2 samples.

Results

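The D-type cyclins, the kinases they activate, inhibitors of those kinases and the protein they phosphorylate were followed in sorted mouse microglia after tamoxifen or oil. The 8 genes, of 32285 in the expression matrix, were the cyclins Ccnd1, Ccnd2 and Ccnd3, the kinases Cdk4 and Cdk6, the inhibitors Cdkn1b and Cdkn2c, and Rb1. They were taken by gene name, and all 8 were found in the matrix under 1 identifier each. Brain cells from 12-week-old mice heterozygous for Cx3cr1CreERT2(Litt), a tamoxifen-inducible Cre recombinase placed in a microglial receptor gene, had been sorted as CD11b+ CD45+ Ly6G- CD206-. The TAM mice had tamoxifen for 4 weeks, and the control samples carry the name Oil. Every sample of both groups carried the Cre allele, so the drug and the activated recombinase cannot be told apart. Tamoxifen given in the absence of Cre was not analysed here, and the promoter of this allele is also active in other macrophages. All samples ran in 1 droplet pool, in which antibody hashtags named 5 TAM and 5 oil samples. Nothing in the labels ties a hashtag to a mouse of its own, so p-values rest on the scatter of hashtags and that scatter may be technical.

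D-type cyclins accumulate when a cell receives growth signals, and they switch on Cdk4 and Cdk6. These kinases phosphorylate the retinoblastoma protein, which then releases E2F transcription factors and lets the cell enter DNA synthesis. The protein made from Cdkn1b, called Kip1, binds cyclin and kinase together, and the protein made from Cdkn2c, an INK4 inhibitor, binds Cdk4 or Cdk6 and keeps the cyclin off. Microglia, the resident macrophages of the brain, divide slowly in the healthy adult and renew themselves locally.

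After filtering, 7903 single cells were analysed, of which 7527 lay in 6 of 8 clusters named microglia-like by 14 microglial markers. In those clusters the median marker was seen in 96.2% to 99.7% of cells. The 10 hashtags held 583 to 901 such cells and 2952694 to 4792860 UMIs each, a UMI being 1 counted mRNA molecule. No barcode was used for more than 1 hashtag. Of the other cell types, the neutrophil list had the highest summed level, 363.8 to 436.2 counts per 1000000 UMIs (CPM) in TAM and 361.6 to 438.5 CPM in oil hashtags, with 4 of its 6 genes at 0. Genes at 0 in every hashtag included Cd163 and Ms4a7 of border macrophages, Ly6c2 of monocytes, Ly6g and S100a8 of neutrophils and Cd3e of T cells. Only 2 of 7 border macrophage genes and 2 of 6 monocyte genes were at 0, and the others were detected. The oligodendrocyte list had no gene at 0 and summed to 49.1 to 61.6 CPM in TAM and 52.2 to 60.3 CPM in oil hashtags. These sums cover clusters already chosen by microglial markers, so they do not measure the purity of the sort. The mean log2 level of the immediate early genes, a list of rapid response genes such as Fos and Egr1, was 5.13, 5.15, 4.51, 4.15 and 4.10 in TAM1 to TAM5, against 7.14, 6.49, 6.30, 5.74 and 5.26 in Oil1 to Oil5. The groups did not overlap, and the level also differed along the order of the hashtags inside each treatment. The oil hashtags all come before the TAM hashtags in that order, so order and treatment cannot be told apart. With order as a covariate 37 genes passed, against 497 without. Of the immediate early list 18 of 22 tested genes fell, led by Ier2, Ier5, Egr1 and Zfp36, where 2.84% of all genes tested fell, and none fell with order as a covariate. The cluster led by Fos, Fosb and Egr1 held 0.665% to 13.8% of the cells of a TAM hashtag and 12.9% to 71.8% of those of an oil hashtag. Its part in the results below was not tested beyond the fits named beside them.

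The promoter windows of the 3 genes with the widest ratios of CPM between dividing and other cells, among the 7 tested, are shown with the motifs searched for in them. The windows come from RefSeq on GRCm38.p6, run from 250 bases before to 50 bases after a start site, are written 5′ to 3′ and were available for 5 of the 8 genes. Capitals mark the E-box, CACGTG, which Myc-family factors can bind.
Cdk4, chr10:127063285-127063584 (plus strand): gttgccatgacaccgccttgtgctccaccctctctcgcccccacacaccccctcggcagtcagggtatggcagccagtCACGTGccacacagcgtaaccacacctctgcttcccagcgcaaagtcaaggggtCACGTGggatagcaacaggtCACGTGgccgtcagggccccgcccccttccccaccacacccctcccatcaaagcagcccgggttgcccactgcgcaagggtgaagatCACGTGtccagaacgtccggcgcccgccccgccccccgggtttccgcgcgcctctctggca
Ccnd3 first start, chr17:47504801-47505100 (plus strand): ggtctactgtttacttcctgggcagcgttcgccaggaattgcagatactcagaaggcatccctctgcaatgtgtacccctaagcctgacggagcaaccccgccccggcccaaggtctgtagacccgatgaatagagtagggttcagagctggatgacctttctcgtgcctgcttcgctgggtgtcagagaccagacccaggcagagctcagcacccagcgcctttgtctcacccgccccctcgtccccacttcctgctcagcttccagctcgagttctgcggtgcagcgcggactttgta
Ccnd3 second start, chr17:47593217-47593516 (plus strand): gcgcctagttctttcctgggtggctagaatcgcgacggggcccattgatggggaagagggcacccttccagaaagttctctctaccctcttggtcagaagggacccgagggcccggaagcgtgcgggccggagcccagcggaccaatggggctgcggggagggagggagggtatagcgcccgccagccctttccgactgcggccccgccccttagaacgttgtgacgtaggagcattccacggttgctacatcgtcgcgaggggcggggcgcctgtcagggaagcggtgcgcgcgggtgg
Cdkn2c first start, chr4:109666707-109667006 (minus strand): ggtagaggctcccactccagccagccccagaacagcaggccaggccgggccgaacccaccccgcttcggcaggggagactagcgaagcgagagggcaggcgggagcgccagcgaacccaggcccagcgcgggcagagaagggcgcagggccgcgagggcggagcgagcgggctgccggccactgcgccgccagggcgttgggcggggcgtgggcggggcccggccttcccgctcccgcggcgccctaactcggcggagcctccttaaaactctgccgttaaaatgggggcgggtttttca
Cdkn2c second start, chr4:109665323-109665622 (minus strand): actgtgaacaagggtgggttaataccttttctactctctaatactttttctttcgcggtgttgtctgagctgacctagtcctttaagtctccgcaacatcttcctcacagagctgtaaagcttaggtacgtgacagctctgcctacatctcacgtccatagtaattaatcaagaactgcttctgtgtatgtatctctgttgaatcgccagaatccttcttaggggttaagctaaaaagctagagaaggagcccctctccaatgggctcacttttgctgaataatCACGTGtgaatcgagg

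Searched on both strands were the E2F words TTTCCCGC, TTTCGCGC, TTTGCCGC and TTTGGCGC, the CHR element TTTGAA of late cell cycle genes, the AP-1 words TGACTCA and TGAGTCA, and the E-box. No word overlapped another in these windows. Cdk4 held 4 E-boxes, beginning 172, 118, 98 and 11 bases before its start site. At least 1 E-box lay in 7.15% of all 32851 windows, and 4 or more lay in 8 windows. The second Cdkn2c window held 1 E-box, 34 bases after its start site. The other words were absent from all 5 windows printed. Among all windows, 2.26% held an E2F word, 17.9% the CHR element and 5.20% an AP-1 word.

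Ccnd3 gave most of the D cyclin counts in these cells and was the one gene among the 7 tested that passed the test. The gene lies on the plus strand at chr17:47505051-47599691 (GRCm38) and overlaps Bysl on the other strand, so reads of both could mix. Its level, in CPM after scaling between hashtags, was 906.7, 914.3, 882.1, 786.3 and 878.5 in the hashtags TAM1 to TAM5, against 817.6, 678.6, 688.3, 708.7 and 606.7 in Oil1 to Oil5. Only TAM4 and Oil1 made the groups overlap, since Oil1 was above TAM4. The means were 873.6 ± 51.2 CPM in TAM and 700.0 ± 76.2 CPM in oil hashtags (SD, 5 hashtags each). Ccnd3 rose 1.25-fold, a log2 fold change of 0.32 ± 0.06 (SE) with an adjusted p of 0.00999 in edgeR's quasi-likelihood test. One of 7 tested genes passing compares with 4.45% of all 11170 genes tested, and nothing is read from that share because the genes were chosen with this contrast known. Sums per hashtag cannot tell a change in the number of expressing cells from a change in mRNA per cell.

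Ccnd1, the other expressed D cyclin, was at 98.8, 110.9, 117.5, 96.6 and 113.3 CPM in TAM1 to TAM5, against 83.2, 95.1, 109.0, 126.0 and 105.4 CPM in Oil1 to Oil5. Every TAM value lay within the oil range, and the log2 fold change of 0.05 had a 95% interval, from its SE, of -0.13 to 0.22 (adjusted p 0.846). Ccnd2 gave 11 UMIs in all 7527 cells, which were 4, 0, 0, 2 and 4 in TAM1 to TAM5, and 0, 0, 1, 0 and 0 in Oil1 to Oil5. It was too rare to be tested in the main fit. With no filter on low counts its log2 fold change in the quasi-likelihood test was 2.67 ± 1.06 (SE, adjusted p 0.188). These 3′ counts are 1 per molecule and are not expected to scale with transcript length. Counts that arise inside long genes or from overlapping genes were not separated, so levels of different genes compare only roughly. Ccnd3 made up 88.2% to 90.1% of D cyclin CPM in TAM hashtags and 84.9% to 90.8% in oil hashtags, with Ccnd1 nearly all of the rest.

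**Figure D1:**
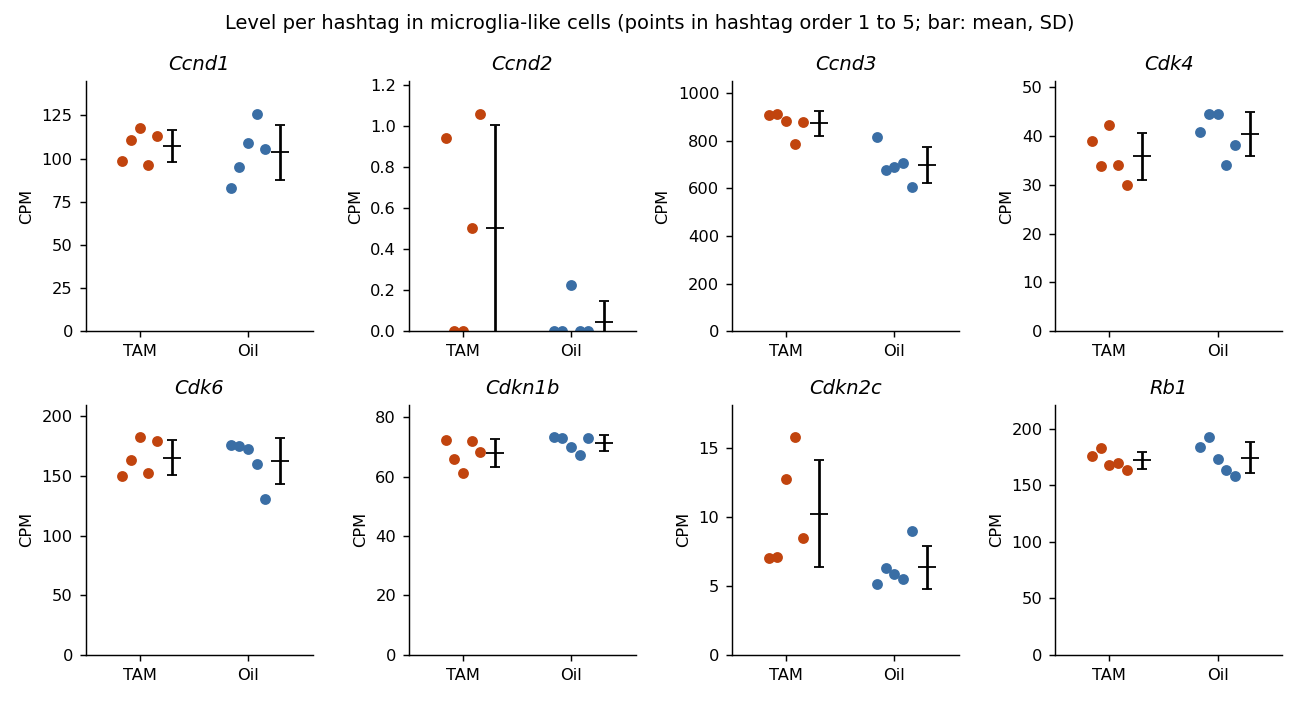
Level of each of the 8 genes (CPM, y axis from 0) in the 5 TAM and 5 oil hashtags, with mean and SD beside the points. The TAM points of Ccnd3 lie between 786.3 and 914.3 CPM and the oil points between 606.7 and 817.6 CPM, while the points of Ccnd1, Cdk6 and Rb1 overlap between the groups.

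The kinases did not pass the test. Cdk4, the partner kinase of D cyclins in most dividing cells, was at 38.9, 33.9, 42.3, 34.1 and 29.9 CPM in TAM1 to TAM5, against 40.8, 44.6, 44.5, 34.0 and 38.2 CPM in Oil1 to Oil5. Its log2 fold change was -0.16 with a 95% interval of -0.36 to 0.03 (adjusted p 0.405). Cdk6, its close relative, was at 149.9, 163.1, 182.5, 152.7 and 179.5 CPM in TAM1 to TAM5, against 175.9, 175.2, 172.9, 160.6 and 130.4 CPM in Oil1 to Oil5. The groups overlapped for both kinases, and the Cdk6 interval was -0.13 to 0.18 on the log2 scale (adjusted p 0.910). Estimates outside that interval came without the immediate early cluster (0.22, adjusted p 0.106), with each hashtag's immediate early level as covariate (0.20, adjusted p 0.659), without Oil1, Oil2 and Oil3 (0.19, adjusted p 0.475), in male hashtags alone (-0.17, adjusted p 0.524) and in cluster 3 alone (0.35, adjusted p 0.338), the last chosen after seeing the data. None of them passed. Cdk4 was at 0.0026 without Oil1, Oil2 and Oil3. Mean Cdk6 was above mean Cdk4 in both groups, at 165.6 against 35.8 CPM in TAM and 163.0 against 40.4 CPM in oil hashtags. This sets different genes side by side, with the limit given for the cyclins.

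Cdkn1b, whose product Kip1 holds cells out of the cycle, was at 72.4, 65.8, 61.3, 72.0 and 68.3 CPM in TAM1 to TAM5, against 73.2, 72.8, 69.9, 67.2 and 72.9 CPM in Oil1 to Oil5. The groups overlapped, and the interval of its log2 fold change was -0.19 to 0.05 (adjusted p 0.601). Rb1, the shared target of both kinases, was at 175.9, 182.8, 168.3, 169.8 and 163.9 CPM in TAM1 to TAM5, against 184.2, 192.5, 173.3, 164.0 and 158.6 CPM in Oil1 to Oil5. Every TAM value of Rb1 lay within the oil range, and its interval was -0.13 to 0.09 (adjusted p 0.897).

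Cdkn2c, on the minus strand at chr4:109660876-109667189 with no overlapping gene, was scarce, with 329 UMIs in all, and uneven. It was at 7.07, 7.12, 12.8, 15.8 and 8.47 CPM in TAM1 to TAM5, against 5.17, 6.28, 5.84, 5.49 and 8.99 CPM in Oil1 to Oil5. TAM3 and TAM4 stood above all other hashtags, and Oil5 reached into the TAM range. The log2 fold change was 0.70 ± 0.24 (SE) with an adjusted p of 0.109, so it did not pass. It passed with sex as a covariate (0.70, adjusted p 0.0385), with no filter on low counts (0.71, adjusted p 0.0443) and in female hashtags alone (0.87, adjusted p 0.0455), while leaving out any 1 hashtag kept it short of the threshold (adjusted p 0.0523 to 0.272). Its sign turned when the immediate early covariate was added (-0.095, adjusted p 0.971) and with hashtag order as a covariate (-0.11, adjusted p 0.981).

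None of the 7 tested genes had TAM and oil hashtags that did not overlap, against 5.27% of all genes tested. Sex was read from Xist and Y-linked genes, which put 6 hashtags as female and 4 as male. Oil1, Oil2, TAM1 and TAM2 were male, so sex ran with hashtag order and number inside each treatment. TAM3 and TAM4, the hashtags high in Cdkn2c, were female, and without Oil1, Oil2 and Oil3 all oil hashtags were female. None of the 7 genes passed the test of a TAM difference that depended on sex (adjusted p 0.844 to 0.997), a test that 0.0179% of genes passed. The 2 that passed it, Stmn1 and Efna5, are named after their values were seen. At an unadjusted p below 0.05 that test had 635 genes.

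Dividing cells were selected on measured values, as microglia-like cells with 3 or more summed UMIs of Mki67 and Top2a, so gene levels in them are a description with no test. There were 49 of them, 41 in TAM and 8 in oil hashtags, against 7478 other cells. They were 1.08 ± 0.561% of the cells of a TAM hashtag and 0.218 ± 0.121% of the cells of an oil hashtag (SD, 5 hashtags each). The shares were 0.242%, 0.858%, 1.33%, 1.73% and 1.23% in TAM1 to TAM5, against 0.147%, 0.322%, 0.114%, 0.133% and 0.375% in Oil1 to Oil5. The groups overlapped, since TAM1 was below Oil2 and Oil5. The difference of 0.861 percentage points had a p of 0.0238 in an exact two-sided permutation test, whose smallest possible p is 0.00794. The share was not tested with sex, hashtag order or immediate early level as a covariate. The 18 genes of the dividing list, Mki67 and Top2a among them, summed to 49.8 to 295.6 CPM in TAM and 7.95 to 44.8 CPM in oil hashtags. Dividing cells were deeper, with a median of 8376 UMIs against 4993.5 in other cells, so the levels below are per 1000000 UMIs of each set, without further scaling. The intervals cover counting error only.

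Cdkn2c was the gene of the 8 with the widest gap. It was at 273.6 CPM in dividing cells (exact 95% Poisson interval 225.5 to 328.9) and 5.61 CPM in other cells (4.89 to 6.42), a ratio of 48.7. The 49 dividing cells made up 0.651% of the cells and held 113 of the 329 Cdkn2c UMIs, 34.3% (exact 95% binomial interval 29.2% to 39.8%). These UMIs were spread over 32 of the 49 cells, with at most 12 in 1 cell, against 208 of the 7478 other cells, with at most 2 in 1 cell. The 5 TAM hashtags gave 3, 9, 34, 42 and 16 Cdkn2c UMIs in dividing cells, and the 5 oil hashtags 0, 2, 1, 0 and 6. Cdkn2c thus had most of its dividing-cell UMIs in TAM3 and TAM4, the hashtags that were high in the sums.

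Ccnd3 went the other way. It was at 191.3 CPM in dividing cells (151.4 to 238.4) and 790.3 CPM in other cells (781.4 to 799.2), a ratio of 0.242. Counted per cell, dividing cells had 1.61 Ccnd3 UMIs on average and other cells 4.07, although the dividing cells were deeper. In the 4 TAM hashtags with at least 5 dividing cells, Ccnd3 was lower in the dividing cells of every one, at 55.3 to 264.4 CPM against 823.1 to 923.7 CPM in their other cells. Cdkn2c was higher in all 4, at 241.9 to 359.6 CPM against 4.11 to 5.96 CPM.

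**Figure D2:**
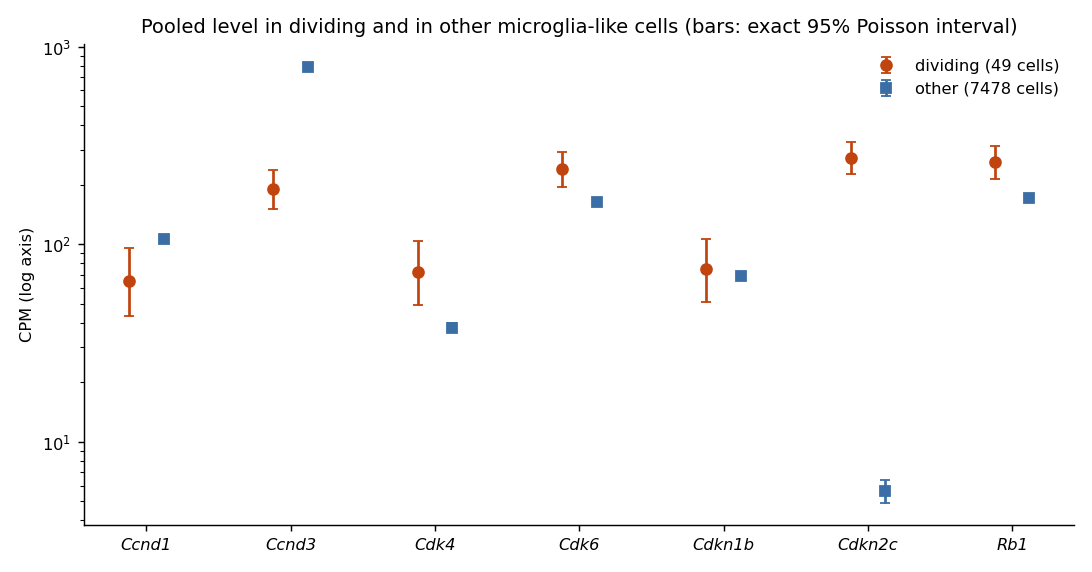
Pooled level (CPM, log axis) of the 7 tested genes in dividing and in other microglia-like cells, with exact 95% Poisson intervals. Cdkn2c stands at 273.6 against 5.61 CPM and Ccnd3 at 191.3 against 790.3 CPM, and the other 5 genes differ by less.

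The other 5 differed less between the 2 sets of cells. Cdk4 was at 72.6 CPM in dividing cells (49.0 to 103.7) and 37.8 CPM in other cells, and it was higher in dividing cells of all 4 TAM hashtags with at least 5 such cells. Rb1 was at 261.5 CPM (214.5 to 315.7) against 170.9 CPM, and higher in 4 of 4. Cdk6 was at 239.7 CPM (194.8 to 291.8) against 162.9 CPM, and higher in 3 of 4. That pooled value leaned on TAM5, which gave 34 of its 99 UMIs in dividing cells and was at 514.1 CPM. TAM2, TAM3 and TAM4 were at 138.2, 201.0 and 168.8 CPM, and the other cells of the 4 hashtags at 155.7 to 184.1 CPM. Cdkn1b, at 75.1 CPM (51.0 to 106.5) against 69.1 CPM, could not be told from the other cells at this depth and was higher in 2 of 4 hashtags. Ccnd1 was at 65.4 CPM (43.1 to 95.1) against 106.1 CPM, and higher in 0 of 4. Its UMIs per cell were nearly equal, at 0.551 in dividing and 0.546 in other cells.

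The UMI threshold could be seen in the values around it. The 3 cells with exactly 3 Mki67 and Top2a UMIs had 1 Cdkn2c UMI among them, and the 12 cells with 2 UMIs and the 25 cells with 1 UMI had none, which allows up to 38.1 and 19.8 CPM. Within the dividing cells, Cdkn2c was at 378.0 CPM in the 29 cells with 10 or more such UMIs and 52.8 CPM in the 20 cells with 3 to 9. Ccnd3 was at 192.6 CPM in those 29 cells and 188.5 CPM in those 20, against 419.5 CPM in the cells with 2 UMIs, 864.7 CPM in those with 1 and 790.7 CPM in those with none.

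The TAM contrast was also fitted without the 49 dividing cells, a set smaller than the 122 cells of the cluster led by Mki67 and Top2a. Ccnd3 still rose, with a log2 fold change of 0.34 (adjusted p 0.00640), where 3.86% of all genes passed. Its pooled level in non-dividing cells was 891.6 CPM in TAM and 688.4 CPM in oil hashtags. The log2 fold change of Cdkn2c became -0.15 with an adjusted p of 0.758, and its pooled level in non-dividing cells was 5.39 CPM in TAM and 5.84 CPM in oil hashtags, with Poisson intervals that overlapped. The other 5 genes again did not pass.

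**Figure D3:**
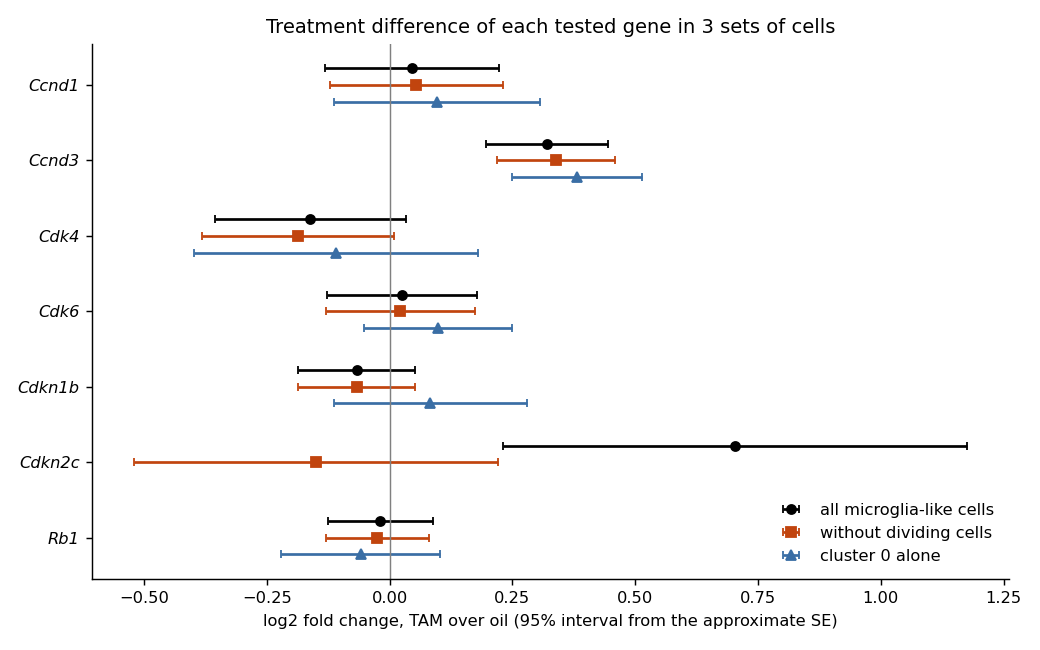
Log2 fold change of TAM over oil with its 95% interval (from the approximate SE) for the 7 tested genes in all microglia-like cells, without dividing cells and in cluster 0 alone. Ccnd3 lies right of 0 in all 3 sets, at 0.32, 0.34 and 0.38, and Cdkn2c lies at 0.70 in all cells and at -0.15 without the dividing cells and was too rare to test in cluster 0.

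The rise of Ccnd3 was also present inside the largest cluster. In cluster 0, which had no immediate early gene among its 10 leading genes, Ccnd3 was at 752.1, 785.8, 769.6, 646.9 and 757.4 CPM in TAM1 to TAM5, against 666.2, 572.8, 512.3, 575.9 and 505.4 CPM in Oil1 to Oil5. Again only Oil1 reached above TAM4. The log2 fold change there was 0.38 (adjusted p 0.00361). In cluster 3, which had the highest Ccnd3 of the microglia-like clusters, the hashtag means were 1109 ± 64.1 CPM in TAM and 917 ± 82.8 CPM in oil hashtags (SD, 5 each), and the log2 fold change of 0.27 did not pass (adjusted p 0.0649). Cluster 3 held 28.5% to 40.3% of the cells of a TAM hashtag and 6.11% to 21.6% of those of an oil hashtag. The part of that share in the summed Ccnd3 level was not tested. In the cluster led by immediate early genes, the 2 TAM hashtags with at least 20 cells were at 829.3 and 961.7 CPM and the 5 oil hashtags at 681.1 to 823.0 CPM. These 2 fits within clusters were chosen after seeing the data.

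**Figure D4:**
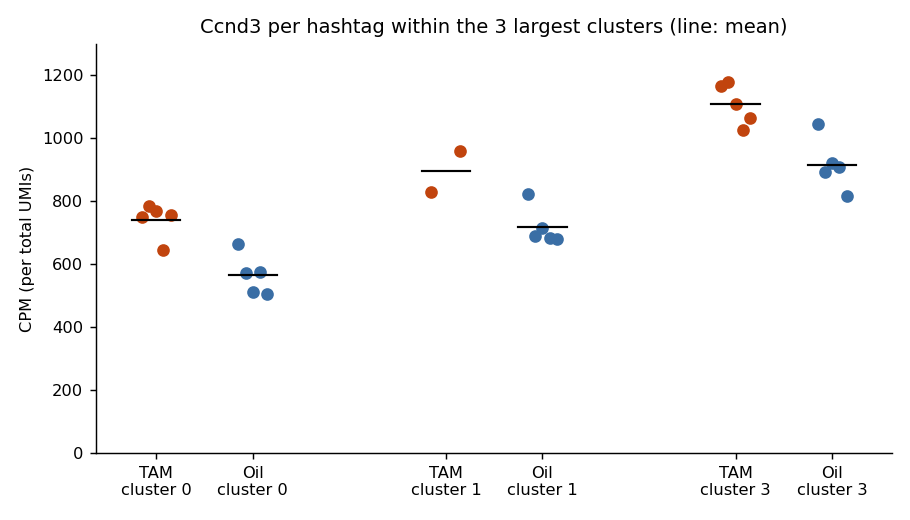
Ccnd3 (CPM, y axis from 0) per hashtag within clusters 0, 1 and 3, TAM left of oil, with the mean as a line. In cluster 1, led by immediate early genes, both TAM points, at 829.3 and 961.7 CPM, lie above the 5 oil points, and in clusters 0 and 3 the TAM means lie above the oil means.

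Settings that dealt with the immediate early genes gave other sizes for this rise. With each hashtag's immediate early level added as a covariate, the log2 fold change of Ccnd3 was 0.58 (adjusted p 8.54e-04), and with the order of the hashtags as a covariate it was 0.60 (adjusted p 0.0120). Without the immediate early cluster it was 0.39 (adjusted p 0.00445). Ccnd3 missed the threshold among the male hashtags (0.28, adjusted p 0.126) and without Oil1, Oil2 and Oil3 (0.41, adjusted p 0.0582), where 7 genes in all passed.

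Clusters differed in these genes as a description, since the same values made the clusters. Cluster 2, led by Mki67 and Top2a, held Cdkn2c at 140.5 CPM, against 6.21 CPM or less in the other microglia-like clusters. It had the lowest Ccnd3, at 402.1 CPM, and the highest Cdk6 and Rb1 among the microglia-like clusters, at 227.7 and 228.9 CPM. Cdk6 there was uneven, at 223.3 CPM in TAM3, 212.8 CPM in TAM4 and 348.9 CPM in TAM5. Ccnd2 stood out in cluster 5, an unnamed group of 52 cells led by the antigen presentation genes H2-Eb1, H2-Aa and Cd74, where it gave 18 UMIs or 85.7 CPM (50.8 to 135.5), against 2.42 CPM or less in each other cluster. The same cluster had the highest Cdkn1b, at 185.7 CPM. Cluster 6, 324 shallow cells, was left unnamed by the depth rule given below. Microglia was still its best list, with 14 of 14 markers detected and the median marker in 68.4% of cells. It had Ccnd3 at 1590 CPM and Cdkn1b at 28.2 CPM, with a median of 1508.5 UMIs per cell.

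**Figure D5:**
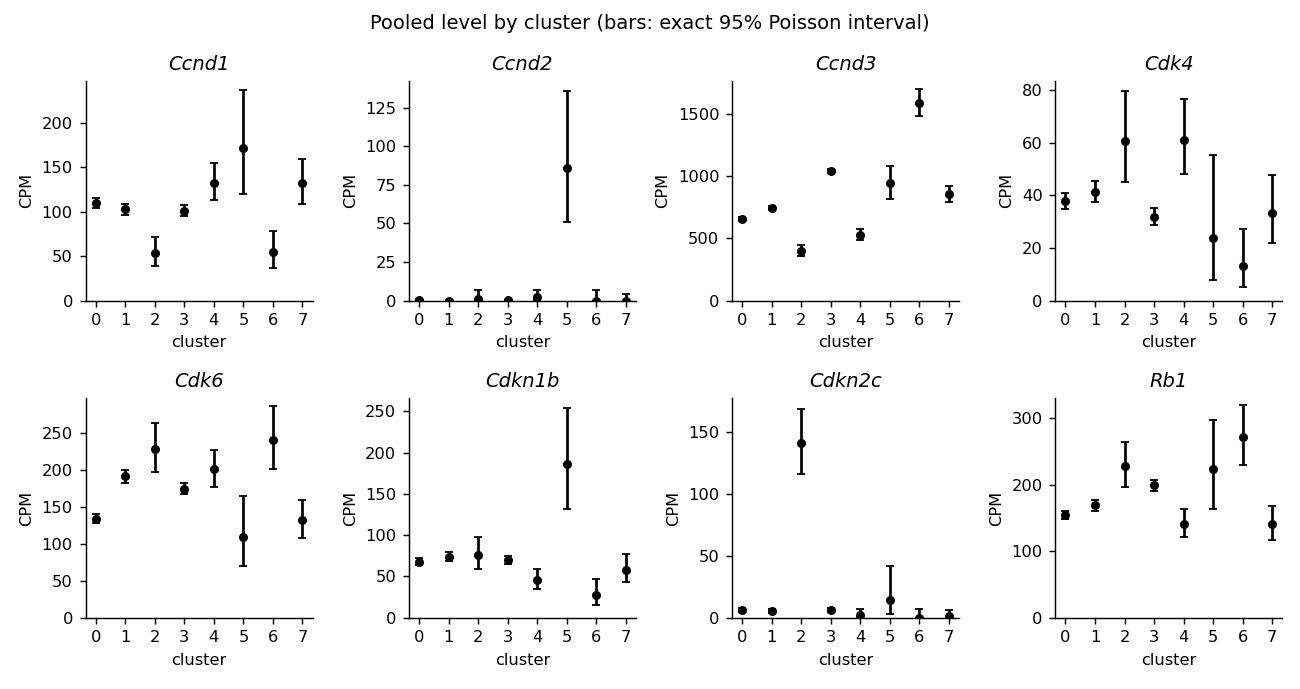
Pooled level of each gene by cluster (CPM, y axis from 0) with exact 95% Poisson intervals, clusters 5 and 6 being unnamed. Cdkn2c peaks in cluster 2 at 140.5 CPM, Ccnd2 in cluster 5 at 85.7 CPM and Ccnd3 in cluster 6 at 1590 CPM.

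Other genes of the pathway were counted by list, beside 1.61% of all genes tested that rose. Of the other cyclin-dependent kinase inhibitors, 1 of 4 tested rose: Cdkn1a, a target gene of p53, was at 73.7 ± 36.1 CPM in TAM and 22.1 ± 3.45 CPM in oil hashtags (log2 fold change 1.76, adjusted p 0.00428). Of later cyclins and kinases 1 of 4 tested rose, the mitotic kinase Cdk1 (1.75, adjusted p 0.00491). Only 4 of the 10 genes of that list were tested. The untested ones, all rare, each had a higher mean in TAM. Ccnb2 was at 5.43 CPM in TAM and 1.18 CPM in oil hashtags, Ccna2 at 2.62 and 0.452, and Ccnb1 at 2.32 and 0.280. Of pocket proteins and E2F factors 2 of 12 rose, E2f1 (1.89, adjusted p 0.0107) and E2f3 (0.21, adjusted p 0.0379), both activators of S phase genes. Among upstream regulators 1 of 12 rose, the Wnt effector Tcf7l2 (0.29, adjusted p 0.00410).

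None of 3 genes of the CDK-activating kinase passed, the smallest p being that of its cyclin Ccnh (0.14, adjusted p 0.174). Among the 15 tested genes for turnover of cyclin D and Kip1 none passed either, the smallest p being that of the deubiquitinase Usp22 (-0.18, adjusted p 0.145). Of the 18 genes that mark dividing cells only 9 were tested. Of these 9, 7 rose, led by Kif23, Top2a, Prc1 and Birc5, and the median log2 fold change of the 9 was 2.20. Genes rare in oil could pass the filter through the TAM hashtags. Kif23 was at 3.54 to 9.28 CPM in TAM and 0 to 2.01 CPM in oil hashtags, and E2f1 at 3.73 to 6.09 and 0 to 2.01 CPM. The count and median are thus a description. The share of all genes that rose was 1.61%. Mki67 and Top2a also define the dividing cells, so this list and the share of dividing cells are not separate evidence. Adding the immediate early covariate left 0 of the 9 past the threshold. Kif23 was then at 2.26 (2.94 without it), Top2a at 1.41 (2.76), Prc1 at 1.10 (2.74) and Birc5 at 1.18 (2.45). Mki67 was at 0.52 (2.10 without it), and Tpx2 turned to -0.57. None of the 9 passed with hashtag order as a covariate either, with Kif23 at 2.25, Top2a at 1.29 and Tpx2 at -0.61. Without Oil1, Oil2 and Oil3 none of the list's 18 genes passed, all tested there, in a fit where 7 genes in all passed. Their log2 fold changes were not small there, with Kif23 at 3.46, Top2a at 3.12, Prc1 at 2.73 and Birc5 at 2.60. Mki67 was at 1.84 and Tpx2 at 1.29. The medians were 0.30 for the other inhibitors, 0.30 for later cyclins, 0.17 for pocket proteins and E2F factors, 0.11 for the CDK-activating kinase, -0.01 for turnover genes, -0.04 for upstream regulators and 0.03 for the 7 genes themselves, beside a median near 0 over all genes. With the dividing cells left out, Cdkn1a (1.71), E2f3 (0.21) and Tcf7l2 (0.30) still passed, and Cdk1 and E2f1 were too rare to test. Once the immediate early level was a covariate, none of these 5 passed (adjusted p 0.103 to 0.616). Their log2 fold changes were then 0.30 for Tcf7l2, 0.25 for E2f3 and 2.13 for E2f1, and 0.68 for Cdkn1a and 0.99 for Cdk1.

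The genes whose levels ran most like each of the 7 over the 10 hashtags were taken from 8375 genes by Pearson's r, as a description with no test. For Ccnd3 they were Jdp2 (0.955) and Npnt (0.947), for Ccnd1 Lrch3 (0.972) and Mcur1 (0.905). Cdk4 ran with Kdelr2 (0.968) and Pigq (0.965), and Cdk6 with Trpv2 (0.939) and Ube3c (0.901). For Cdkn1b they were Slc25a30 (0.878) and Pigp (0.873), for Cdkn2c Lcorl (0.946) and Zfr (0.923), and for Rb1 St3gal3 (0.932) and Wtip (0.929). All points share 1 pool, and the 10 hashtags fall in 2 treatments.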

How the data were processed

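Cells of 1 pool were prepared in the 10x Genomics 3′ format with antibody hashtags, per the labels' protocols. What the authors deposited is 1 matrix of unnormalized UMI counts. It came from Cell Ranger 7.0.0, per the file headers. Per the submitters' processing notes, the genome build was mm10. Annotation, cell calling and strand use: not given in the sources used here. Numbers are uncertain where genes overlap in the reference annotation, which holds for Ccnd1, Ccnd2, Ccnd3, Cdk4, Cdk6 and Rb1 but not for Cdkn1b or Cdkn2c.

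Each barcode was given its hashtag by HTODemux (Seurat 5.3.0, positive quantile 0.99). Of 9975 barcodes 8055 were singlets, 17.4% held several hashtags and 1.83% none. Those were left out, and no doublet caller was run, so doublets within 1 hashtag remain. Cells needed 500 genes, 1000 UMIs and at most 10% mitochondrial UMIs. Clusters came from scanpy 1.11.5 (2000 variable genes, 30 components, 15 neighbours, Leiden resolution 0.5). A cluster was named when at least 3 markers were in 25% of its cells and the median marker in 50%, and it was not far shallower than its sample without a marker among its leading genes. The unnamed clusters 5 and 6 held 52 and 324 cells.

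UMIs of the microglia-like clusters were added up for each hashtag and tested across all genes with the edgeR 4.0.16 quasi-likelihood test (TMM, filterByExpr, no covariate), adjusted by Benjamini-Hochberg at 0.05. SEs are the log2 fold over the root of F. The script was tested on simulated data. DESeq2 1.42.0, covariates, cell sets and left-out hashtags were the alternatives. Levels per hashtag are TMM-scaled CPM and pooled or within-cluster levels plain CPM. The 8 genes, gene lists and marker lists were chosen with earlier results of these data known. Text names the 8 genes, the genes of each list past the test (at most 4, or else the 1 with the smallest p) and the 2 genes most like each by r among those of at least 10 mean CPM. Promoters and coordinates are RefSeq and annotation on GRCm38.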

Additional observations from a re-analysis of the deposited data

Results flagged for a closer look

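A single hashtag lay apart from the 4 others of its treatment in 2 of the 16 sets of 5 values examined. Chance alone flags about 1 set in 20 when values are normally distributed. For Ccnd3 it was TAM4, at 786.3 CPM, below the other TAM hashtags at 878.5 CPM or more. Without TAM4 the log2 fold change of Ccnd3 was 0.36 (adjusted p 0.0168). For Ccnd2 it was Oil3, at 0.225 CPM, which is a single UMI where the other oil hashtags had 0. A set of that form is always flagged, so that rate does not apply to it.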

How the results depend on the processing

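Ccnd3 was higher in TAM under all 26 alternatives and passed in 23. It did not pass in cluster 3 alone (0.27), male hashtags alone (0.28) or without Oil1, Oil2 and Oil3 (0.41). Leaving out 1 hashtag gave 0.27 to 0.38 with adjusted p 0.00254 to 0.0350. Cdkn2c passed with no filter (0.71), sex as covariate (0.70) and female hashtags alone (0.87), and its sign turned without dividing cells (-0.15) and with the immediate early level (-0.095) or hashtag order (-0.11) as covariate. Of the genes that never passed, these signs turned. With the immediate early level as covariate Ccnd1 was at -0.20, Cdk4 at 0.050 and Rb1 at 0.18, and with hashtag order Ccnd1 was at -0.26, Cdk4 at 0.16 and Rb1 at 0.22. Female hashtags alone gave Ccnd1 -0.050 and Rb1 0.018, and male hashtags alone gave Cdk6 -0.17. Without Oil1, Oil2 and Oil3 Ccnd1 was at -0.10, Cdk4 at 0.0026 and Rb1 at 0.10. Library size alone gave Rb1 0.017. Without the immediate early cluster Cdkn1b was at 0.026, and in cluster 0 alone at 0.082. Leaving out 1 hashtag gave -0.024 to 0.12 for Ccnd1, -0.047 to 0.059 for Cdk6 and -0.053 to 0.017 for Rb1. The cause was not tested.

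The count of genes passing was 497 (180 higher and 317 lower in TAM) and 2169 at an unadjusted p below 0.05. Library size alone gave 598, 353 of them higher, and moved the median of all genes by 0.04. DESeq2 gave 493. No filter gave 833, sex as covariate 872, no immediate early cluster 249, cluster 0 alone 77, cluster 3 alone 13, the immediate early level as covariate 68, hashtag order 37, male hashtags alone 124 and no Oil1 to Oil3 7. Leaving out 1 hashtag gave 252 to 656. The test of dependence on sex gave 2 genes, and 71 with no filter.

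The replicate block by hashtag number gave 874 genes, and Ccnd3 passed with it at 0.32. Numbers are not shown to pair hashtags: same-numbered ones correlated at 0.055 to 0.332, 4 of 5 pairs over 0.1, and 5 of 10 hashtags correlated best with their own number. Differently numbered ones correlated at -0.298 to 0.220. Same-numbered hashtags also had the same sex, so number and sex were not separated here.

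In dividing cells, a threshold of 1 UMI gave Ccnd3 377.8, Cdkn2c 175.7 and Rb1 213.0 CPM. The 8 oil cells alone gave Ccnd1 14.0, Ccnd3 69.9, Cdk4 42.0 and Cdkn2c 125.9 CPM, on 71512 UMIs. The share of dividing cells differed by 0.699 to 1.07 points when 1 hashtag was left out, and kept an exact p of 0.0476 or less.

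The depth limits Ccnd2 and Cdkn2c most, and dividing cells in oil are few.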

Other observations

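Several other cell cycle genes had higher levels in the 49 dividing cells, which held from a small to a large share of their UMIs. These genes were chosen after their values were seen, and the cells were selected on Mki67 and Top2a, so the values are a description. Cdkn1a was at 961.2 CPM in dividing cells (exact 95% Poisson interval 869.0 to 1061) and 39.6 CPM in other cells (37.7 to 41.7), so the dividing cells held 20.7% of its UMIs. Ccne1, the cyclin that follows the D cyclins, had 26 of its 32 UMIs there, and Ccna2, the S phase cyclin, 54 of 63. The replication clamp Pcna was at 283.3 CPM in dividing and 44.9 CPM in other cells, with 6.34% of its UMIs in dividing cells. Skp2, which marks Kip1 for destruction, was at 113.8 CPM in dividing and 13.1 CPM in other cells, with 8.53% of its UMIs in dividing cells, beside a Cdkn1b level of 75.1 CPM in dividing and 69.1 CPM in other cells.

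Cdkn1a differed from Cdkn2c in that it also rose without the dividing cells (log2 fold change 1.71, adjusted p 0.00463). That fit still held cells of cluster 2, which had 122 cells against 49 dividing cells in all. Cluster 2 gave 691 Cdkn1a UMIs, against 397 in the dividing cells, and 116 Cdkn2c UMIs, against 113. Whether Cdkn1a rose outside cluster 2 was not tested. By cluster, Cdkn1a was at 836.9 CPM in cluster 2, led by Mki67 and Top2a, and at 98.3 CPM in cluster 4, led by Spp1 and Lgals3, where Cdkn2c was at 2.42 CPM.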
